A study of Mus musculus with 9 samples.

Results

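The Reg family lectins Reg1, Reg2, Reg3a and Reg3g and the Paneth cell genes Mmp7, Pla2g2a and Ang4 were described in the jejunum of outbred mice kept on different feeds. A probe was taken when one of the symbols in its symbol field was the name of one of these 7 genes. This found 7 probes, 1 for each gene, among the 17302 probes with a symbol, which stand for 15674 genes. RNA was measured on 9 single-colour Applied Biosystems arrays with chemiluminescence detection, 1 mouse per array. All 9 mice were males of the outbred strain OF1, 7 weeks old and of the third generation raised on feed B, feed K or feed G, with 3 mice on each feed. Neither the labels nor the methods name a control feed, and which feed contained maize was not given in the sources used here. The methods state that food was withheld before sampling in the light phase and that the time of day at sampling was neither recorded nor randomized, so time of day and feed cannot be told apart. Mice of an outbred strain differ in genotype, and the p-values between feeds below weigh a difference against the spread between such mice.

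Paneth cells sit at the base of the small intestinal crypts and release granules of antimicrobial peptides and enzymes into the crypt lumen. Mmp7 (matrilysin) is the protease that cuts pro-defensins into active peptides in mice, Pla2g2a is a secreted phospholipase that attacks bacterial membranes, and Ang4 is a secreted ribonuclease of the angiogenin family with bactericidal activity. The Reg genes encode small secreted C-type lectins: Reg3g and its relative Reg3b bind bacterial peptidoglycan and are induced in the epithelium by microbial and interleukin-22 signals acting through STAT3, whereas Reg1 and Reg2 were first known from the pancreas and its regenerating islets.

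Several of these genes share a short promoter element. In the RefSeq promoter table (build GRCm38.p6) 6 of the 7 genes had an entry and Pla2g2a had none. Reg3b, Reg3d, Reg3a, Reg2, Reg1 and Reg3g follow each other in this order on chromosome 6. The letters TATAAA, the core of a TATA box, were searched on both strands of the 250 bases before each start and stood in 12.4% of 32851 promoters. They were not found in the windows of Reg3a, Reg3d and Ang4, nor in that of another, later start listed for Mmp7. They were found before the starts of Reg1, Reg2, Reg3g, Mmp7 (its earlier start) and the relative Reg3b. A window of 30 bases is shown 5′ to 3′ for these 5 genes, ending 1 base (Reg3g and Mmp7), 3 bases (Reg3b) or 4 bases (Reg1 and Reg2) before the start, with TATAAA in capitals, because the Reg3b and Reg3g pair shown here also returns in the comparison across mice.
Reg3b, chr6:78370853-78370882, plus strand: tgtTATAAAaacacagtcatctctgtcctg
Reg3g, chr6:78468875-78468904, minus strand: tacTATAAAaacagtcatctctgtcctgac
Reg1, chr6:78425950-78425979, plus strand: gtaTATAAAaggcctaccttttcctttcct
Reg2, chr6:78405122-78405151, plus strand: gcaTATAAAagacctaccattacgtagcca
Mmp7, chr9:7692060-7692089, plus strand: gccaTATAAAtttctccagcccctgtcagg
Reg3b and Reg3g shared a run of 20 bases, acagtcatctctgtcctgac, which in both genes ends at the last base before the annotated start. The longest run shared by any other pair of these promoters was 12 bases. The palindromic letters TTCNNNGAA, a STAT-type motif, were in 7.02% of the promoters, and among these genes in the windows of Reg3b, Reg3d and Ang4. These are matches of letters in the reference strain and not measured sites.

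Probe detection, for which the ratio of signal to noise had to reach 3, ranged from 33.7% to 43.6% of probes on the arrays of feed B, from 41.2% to 47.6% on those of feed K and from 46.4% to 48.1% on those of feed G. The 7 enterocyte markers, among them Fabp2 and Apoa1, were detected on all 9 arrays, as were 18 of 23 Paneth cell genes other than the 7 described. Of 16 pancreatic acinar markers 3 were detected on all 9 arrays and 3 on none, the latter being Prss2, Pnlip and Ela2. The bile acid binding protein Fabp6, the bile acid carrier Slc10a2 and the hormone Fgf15 are characteristic of the ileum. Fabp6 and Slc10a2 were high in some mice, and Fgf15 was detected in feed G mouse 11 alone. Feed G mouse 11 was also the highest for Fabp6 and Slc10a2. This mouse also stood apart in the Paneth cell genes, and values that rest on it are given with and without it. All of the genes but Reg2 were detected on all 9 arrays. Reg2 was detected on 4 arrays, and its spot on the array of feed G mouse 11 carried a failed flag and was left out of every value, so that Reg2 has n = 8. The values below are log2 of the quantile-normalized signal. They compare mice for 1 gene, since the signals of different probes cannot be set against each other.

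**Figure D1:**
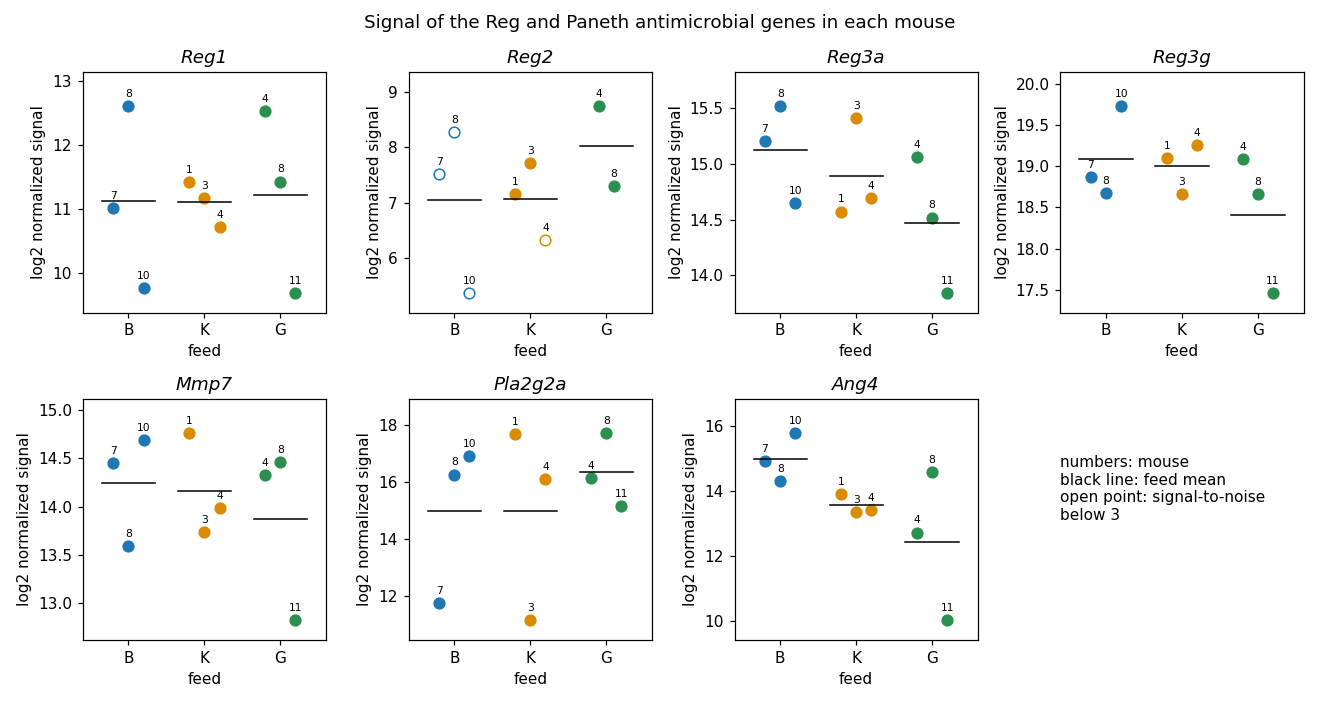
Log2 normalized signal (vertical axis) of each of the 7 genes by feed (horizontal axis), 1 point per mouse with its number; black lines are feed means and open points have a signal-to-noise ratio below 3. Pla2g2a is low in 2 mice, and feed G mouse 11 is lowest in 5 of the 6 genes detected on every array.

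Of the 7 genes Ang4 had the largest distance between feed means. Its log2 signals were 14.93, 14.31 and 15.79 in mice 7, 8 and 10 of feed B. They were 13.92, 13.37 and 13.43 in mice 1, 3 and 4 of feed K, and 12.73, 14.59 and 10.03 in mice 4, 8 and 11 of feed G. All 3 mice of feed K were below all 3 mice of feed B, whereas the mice of feed G reached from below feed K into the range of feed B. The mean was 15.01 ± 0.75 for feed B, 13.58 ± 0.30 for feed K and 12.45 ± 2.29 for feed G (SD, n = 3 mice each). Feed K was 2.71-fold lower than feed B, a log2 difference of -1.44 with a standard error of 0.99, and limma gave an adjusted p of 0.845. Feed G was 5.90-fold lower than feed B, a log2 difference of -2.56 with a standard error of 0.99 and a 95% confidence interval from -4.83 to -0.29. This was the only one of the 21 differences between feeds in the 7 genes with an unadjusted p below 0.05 (limma, 0.0312), where 5.74% of all genes tested had one. The 7 genes held 0 such differences for the other 2 pairs, in which the share of all genes was 6.31% (K against B) and 4.54% (G against K). The Ang4 difference did not pass after adjustment over all 9652 genes tested (adjusted p = 0.841). The exact permutation test of 3 against 3 mice gave p = 0.1 for feed K against feed B, the smallest value it can give, and p = 0.2 for feed G against feed B.

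The Ang4 differences depended on single mice of feed G. Without mouse 11 the log2 difference of feed G from feed B was -1.35, and that of feed G from feed K turned from -1.12 to 0.09. Without mouse 8, the only mouse of feed G in the range of feed B, the log2 difference of feed G from feed B was -3.63. The exact permutation test over the 3 feeds then gave an unadjusted p of 0.00357 (0.129 with all mice), the smallest value possible with the mice left. Leaving out the mouse that overlapped feed B separated the 3 feeds by itself, so this p is no support for a difference between feeds. For the pair limma still gave an adjusted p of 0.711. The share of detected probes rose from feed B to feed G, and with this share as a covariate the log2 differences from feed B were -2.15 for feed K and -3.70 for feed G, neither past the threshold (limma, unadjusted p = 0.136 and 0.0554). In whole tissue, fewer Paneth cells and less RNA per Paneth cell cannot be told apart.

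Mmp7 varied little between feeds. The log2 signals were 14.45, 13.59 and 14.68 on feed B, 14.76, 13.74 and 13.98 on feed K and 14.32, 14.46 and 12.83 on feed G. The mice of the 3 feeds overlapped, and the single low value was again that of feed G mouse 11. The largest difference between feeds was -0.37 for feed G minus feed B (standard error 0.50, limma adjusted p = 0.918), with a 95% confidence interval from -1.53 to 0.78.

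Pla2g2a split the mice rather than the feeds. In mice 7, 8 and 10 of feed B its log2 signals were 11.75, 16.26 and 16.91, in mice 1, 3 and 4 of feed K 17.69, 11.16 and 16.10, and in mice 4, 8 and 11 of feed G 16.14, 17.71 and 15.16. Feed B mouse 7 and feed K mouse 3 were low, each beside 2 mice of their own feed that were high. The gap between this pair and the next mouse, feed G mouse 11, was 3.41 log2 units or 10.6-fold, and the highest mouse was 94.0-fold above the lowest. Both low mice were above background, since the lowest signal-to-noise ratio of the probe over the 9 arrays was 37.8. The gap was present before normalization as well. The deposited signals of the 2 low mice were 2021 and 3381, and those of the other mice ran from 47606 to 293624. Feed means differed by 1.36 log2 units for feed G minus feed B, with a standard error of 1.85 (limma adjusted p = 0.918). Without one or other of the 2 low mice each of the 3 differences changed sign, that of feed G from feed B for example ranging from -0.24 to 2.33 over the fits without 1 mouse. In the RefSeq annotation of the reference strain C57BL/6J Pla2g2a is a transcribed pseudogene, and known inbred strains carry either an intact or a disrupted copy. The genotype of the OF1 mice was not analysed here.

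Reg3g, the peptidoglycan-binding lectin, had log2 signals of 18.87, 18.67 and 19.73 on feed B, 19.10, 18.66 and 19.26 on feed K and 19.08, 18.66 and 17.46 on feed G. The feeds overlapped, and feed G mouse 11 lay apart below the other 8 mice. The mean of feed G was 1.61-fold below that of feed B (log2 difference -0.69, standard error 0.45, limma adjusted p = 0.888), and without mouse 11 the log2 difference was -0.22. Reg3b, named Pap on the array and matched to Reg3b by its RefSeq accession, followed the same course. It had log2 signals of 19.81, 19.19 and 20.32 on feed B, 19.34, 19.41 and 19.81 on feed K and 19.65, 19.08 and 18.41 on feed G. For both genes feed B mouse 10 was highest and feed G mouse 11 lowest.

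Reg3a was the most even of the 7 genes. Its log2 signals were 15.21, 15.52 and 14.65 on feed B, 14.57, 15.41 and 14.69 on feed K and 15.06, 14.52 and 13.84 on feed G, a 3.20-fold range over 9 mice. The mean on feed G was 0.65 log2 units below feed B (95% confidence interval of the difference from -1.53 to 0.23, limma adjusted p = 0.880), and feeds overlapped.

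Reg1 differed more within feeds than between them. The log2 signals were 11.01, 12.61 and 9.77 on feed B, 11.43, 11.17 and 10.71 on feed K and 12.53, 11.43 and 9.69 on feed G. Feed B and feed G each held a high and a low mouse, and the 3 feed means of 11.13, 11.10 and 11.22 were closer together than any 2 mice of feed B. The 95% confidence interval of feed G minus feed B still reached from -1.84 to 2.01, so that a 4-fold difference could not be told from none with 3 mice per feed.

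Reg2 was close to background. It was detected on no array of feed B, in mice 1 and 3 of feed K and in mice 4 and 8 of feed G. The log2 signals were 7.52, 8.28 and 5.38 on feed B, where the signal-to-noise ratios were 0.95 to 1.80. They were 7.16, 7.72 and 6.33 on feed K and 8.75 and 7.30 on feed G. The order of the mice is therefore uncertain, because on feed B the signals are only upper limits. Mouse 8 of feed G lay below the undetected mice 7 and 8 of feed B. The fitted difference of feed G from feed B, 0.96 log2 units, had an adjusted p of 0.899 with limma. It was 0.12 without feed B mouse 10 and 0.09 with the failed spot kept.

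None of the 7 genes passed the threshold of an adjusted p of 0.05 in limma, neither over the 3 feeds nor in any pair of feeds. This was also the share of all genes, 0% of 9652 tested, whereas at an unadjusted p below 0.05 the F test over the 3 feeds held 5.37% of all genes and 0 of these 7. The unmoderated test likewise called 0 of the 7, and 1 of all genes. Ang4 was also the only one of the 7 whose mice did not overlap between 2 feeds, being lower on feed K than on feed B. Such a gap toward lower values on feed K was seen in 3.68% of the genes with values on all arrays, and toward higher values in 6.26%. For feed G against feed B these shares were 4.65% lower and 6.30% higher, and for feed G against feed K 7.36% lower and 6.31% higher, with 0 of the 7 genes in each. The median log2 difference over the 7 genes was -0.08 (K minus B), -0.37 (G minus B) and -0.29 (G minus K), beside 0.05, 0.06 and -0.01 over all genes tested. Without feed G mouse 11 the medians for G minus B and G minus K were 0.15 and 0.23. The medians also depended on the scaling. When each array was scaled to its median signal, the median over all genes moved to 0.41 (K minus B) and 0.53 (G minus B), and that of the 7 genes to 0.26 and 0.17, which is again below all genes.

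**Figure D2:**
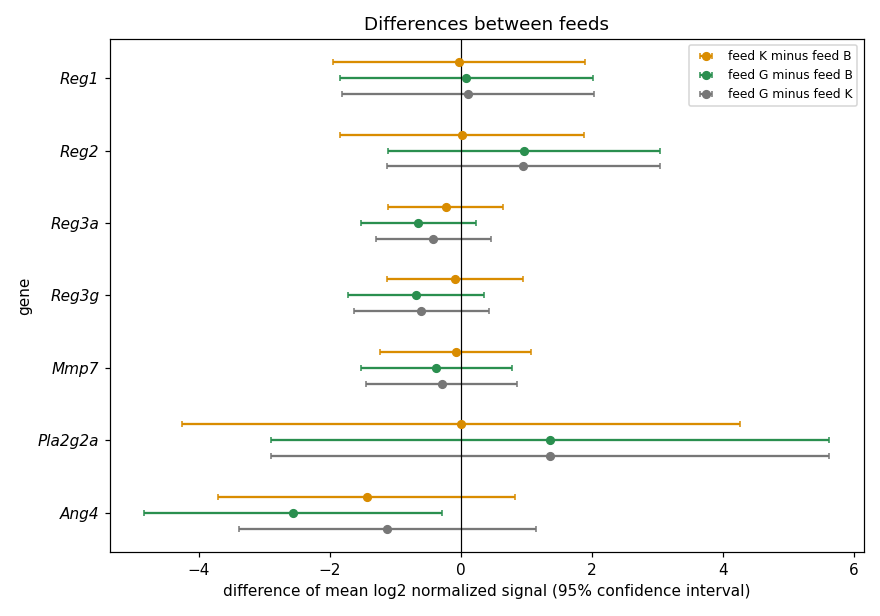
Differences of mean log2 normalized signal between feeds (horizontal axis) for each gene (vertical axis), with 95% confidence intervals from the fit over all genes. The interval of Ang4 for feed G minus feed B, from -4.83 to -0.29, leaves out 0 and the other 20 include it.

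The 7 genes differed widely between mice. Over all 9652 genes tested the median standard deviation of log2 signal over the mice was 0.42, and over the 7 genes it was 1.03. With feed means subtracted the values were 0.41 and 1.14. Pla2g2a had a standard deviation of 2.40, and only 0.0311% of the genes tested had a larger one. For Ang4 it was 1.65 with 0.363% of genes above it, for Reg2 1.06 with 7.17% and for Reg1 1.03 with 8.58%. Mmp7 and Reg3g (both 0.62, with 31.9% and 32.0% of genes above) and Reg3a (0.52, with 39.5%) were in the upper part of the common range. Signals of Reg2 were near background on several arrays, and without the spots at noise level (ratio of signal to noise below 1) the median over the 7 genes was 0.62.

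Feed G mouse 11 was the lowest of the 9 mice in Reg1, Reg3a, Reg3g, Mmp7 and Ang4, that is in 5 of the 6 genes detected on all arrays, and not in Pla2g2a. The same mouse was lowest in 17.3% of all 5887 genes detected on all arrays. Compared with the mean of the other 8 mice it was 17.2-fold lower in Ang4, 3.13-fold in Reg1, 2.91-fold in Reg3g, 2.68-fold in Mmp7 and 2.16-fold in Reg3a, and 1.23-fold in Pla2g2a. With each array scaled to its median signal the mouse was lowest in 3 of the 6 genes, namely Reg3a, Reg3g and Ang4, beside 3.18% of all genes, and in the deposited series table in 4 of the 6 beside 5.01%.

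The other Paneth cell genes followed in this mouse. It was lowest in 16 of the 18 detected on all arrays, with a median of -1.50 log2 units from the mean of the other mice, beside -0.02 over all genes. The lysozyme gene Lyz1 (Lzp-s on the array) was 14.38 in this mouse and 16.26 to 17.86 in the others. The lectin Itln1 (Itln) was 12.25 against 14.56 to 16.01, and the ribonuclease Ang2 11.52 against 14.14 to 15.59. The defensin probe Defcr4 gave 14.45 against 16.42 to 17.58 and Defcr6 17.61 against 19.09 to 19.89. All these secreted products lay well under the range of the other mice. The 2 exceptions were Atoh1, the transcription factor of the secretory lineage, and Xbp1, a regulator of secretory capacity, which were 0.47 and 0.00 log2 units from the mean of the others. The summed signal of the Paneth cell list was 4410570 in mouse 11 and 8755870 to 10358500 in the other 8. Most of this sum comes from the brightest defensin probes, so it says little about the other genes of the list. Quantile normalization gives every array the same highest value, and Defcr-rs7 had this value, 20.93, in all mice of feed K. Differences above it cannot be seen in the sum. Defensin copies are nearly identical in sequence, and so are some angiogenin genes, and how far their probes share transcripts was not tested. Of the smooth muscle markers 7 of 8 were also lowest in mouse 11, at a median of -0.58. Of the 3 pancreatic acinar markers detected on all arrays 2 were, at a median of -1.19 over the 3. None of the 4 goblet cell markers detected on all arrays were. Of the 7 enterocyte markers 2 were lowest in it, at a median of -0.29 over the 7. Among these Fabp1 was 16.40 in mouse 11 and 17.50 to 19.35 in the others, whereas Fabp2 and Apoa1 were highest in mouse 11.

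**Figure D3:**
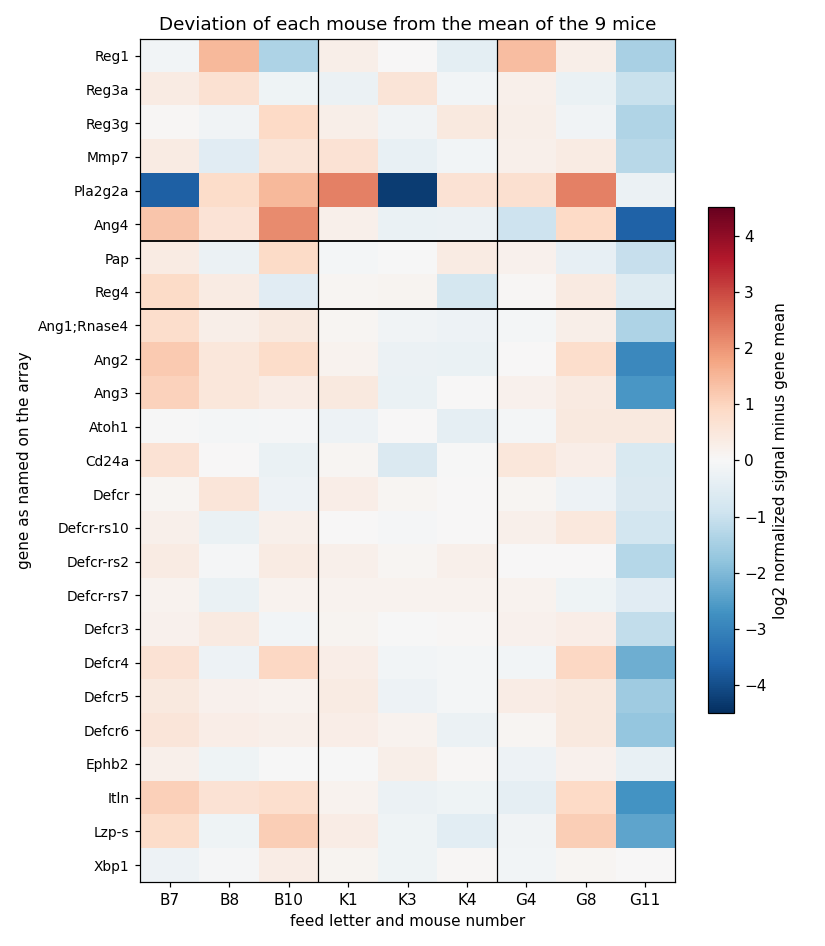
Log2 normalized signal minus the mean of the 9 mice (colour) for the 6 genes detected on all arrays, Reg3b (Pap) and Reg4, and 17 other Paneth cell genes (rows, array names) in each mouse (columns, feed letter and mouse number). The column of feed G mouse 11 is blue for Ang4, most defensins, Itln and Lzp-s, and the Pla2g2a row is dark blue in feed B mouse 7 and feed K mouse 3.

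Of the ileal markers Fabp6, Slc10a2 and Fgf15 were highest in feed G mouse 11, and Ostb and Pyy were not. The latter were highest in feed B mouse 10, at 16.58 and 11.91, against 16.06 and 11.34 in mouse 11. Fabp6 was 19.51 in feed G mouse 11, 17.84 and 15.81 in mice 10 and 7 of feed B, and between 4.67 and 12.19 in the remaining 6 mice. Slc10a2 was 12.66 in mouse 11 and 12.05 in feed B mouse 10. Fgf15 was detected in mouse 11 alone, at 10.49. Feed B mouse 10, second highest in Fabp6 and Slc10a2, had the highest Ang4 and Reg3g of all mice, whereas mouse 11 had the lowest. Among the other 8 mice those with the highest Fabp6, mice 10 and 7 of feed B, also had the highest Ang4. The summed signal of the 4 ileal markers tested ranged from 38757 to 340525 on feed B, 48291 to 52612 on feed K and 29863 to 824499 on feed G. The part of the position of the sampled segment in the low values of mouse 11 was not tested.

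**Figure D4:**
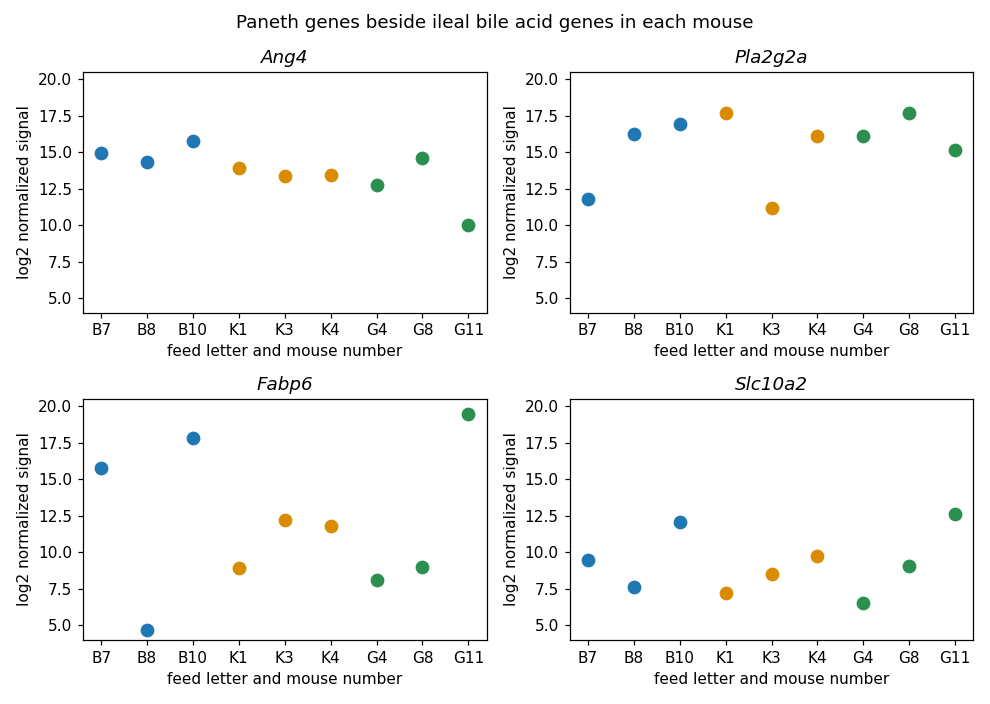
Log2 normalized signal (vertical axis, the same range in each panel) of Ang4, Pla2g2a, Fabp6 and Slc10a2 in each of the 9 mice (horizontal axis, coloured by feed). Fabp6 and Slc10a2 are high in both feed B mouse 10 and feed G mouse 11, while Ang4 is highest in the former (15.79) and lowest in the latter (10.03).

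Whether the genes vary together among mice was compared over the 15 pairs of the 6 genes detected on all arrays, using exact permutation of the pairings and two-sided tests. Pearson's r was above 0 in 14 of 15 pairs with a median of 0.24, beside 0.02 over all pairs of the 5887 genes. Without feed G mouse 11 it was above 0 in 8 of 15 pairs with a median of 0.09, beside 0.03 over all pairs of genes. With all 9 mice no pair passed an adjusted p of 0.05. Reg3g and Mmp7 had the highest value, r = 0.82 (exact permutation p = 0.0087, adjusted p = 0.128) with Spearman's rho = 0.63 (exact permutation p = 0.0760, adjusted p = 0.429). Reg3g and Ang4 had r = 0.79 (exact p = 0.0270, adjusted p = 0.135) and rho = 0.45 (exact p = 0.230), and Mmp7 and Ang4 had r = 0.78 (exact p = 0.0171, adjusted p = 0.128) and rho = 0.62 (exact p = 0.0857). For Reg1 and Reg3a r was 0.67 (exact p = 0.0473, adjusted p = 0.177) and rho 0.47 (exact p = 0.213). These relations rested largely on feed G mouse 11. With the 2 mice farthest from the median left out r fell to 0.37 for Reg3g and Mmp7, -0.47 for Reg3g and Ang4, 0.59 for Mmp7 and Ang4 and 0.25 for Reg1 and Reg3a. Without mouse 11 alone r was 0.53, 0.33, 0.42 and 0.49 in the same order. Among the remaining 8 mice the lowest values were those of Reg3a with Mmp7, r = -0.75 (exact p = 0.0430), and with Pla2g2a, r = -0.68 (exact p = 0.0594). Both pairs were picked out after their values were seen and had an adjusted p of 0.436 in the exact test. Over all 9 mice their r was 0.19 and -0.45.

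**Figure D5:**
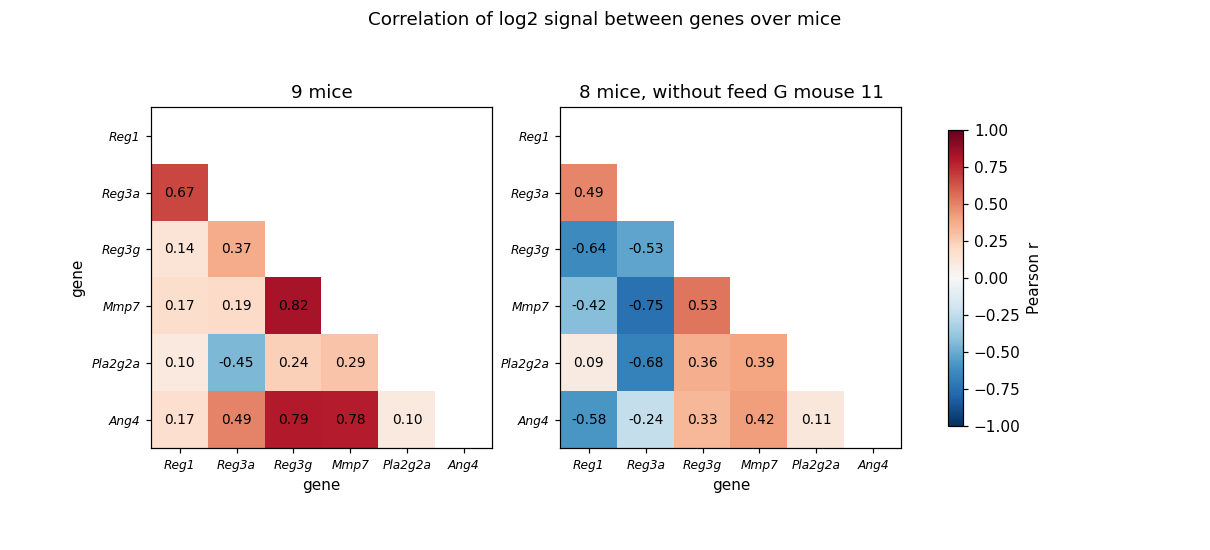
Pearson's r of log2 normalized signal between pairs of the 6 genes detected on all arrays, over 9 mice (left) and over 8 mice without feed G mouse 11 (right), with the colour scale from -1 to 1. Pairs of Reg3g, Mmp7 and Ang4 lie at 0.78 to 0.82 on the left and 0.33 to 0.53 on the right.

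For each of the 6 genes the 3 genes with the most similar course over the 9 mice were listed, out of the 5887 detected on all arrays. This is a description, in which the listed genes have a high r because they were picked for it. For Ang4 these were Itln (r = 0.96), Ang2 (0.95) and the angiogenin gene Ang listed with Rnase4 (0.95), all of them on the Paneth cell list, and without mouse 11 the same genes had r of 0.88, 0.84 and 0.82. For Reg3g they were the smooth muscle gene Tagln (0.96), the ion pump regulator Fxyd1 (0.95) and Reg3b (0.93). Without mouse 11 their r was 0.87, 0.86 and 0.86. For Mmp7 they were the laminin chain Lamb2 (0.95), Ifitm2 (0.94) and the smooth muscle myosin Myh11 (0.94), with 0.90, 0.88 and 0.84 without mouse 11. The values without mouse 11 come from 8 of the mice that served to pick the genes, so they are no separate test. Tagln was between 14.20 and 14.73 in the other 8 mice and 13.74 in mouse 11, a much narrower range than that of Reg3g. Reg1 was closest to F830029L24Rik, Slc37a4 and Nudt3 (0.94 to 0.95), Reg3a to Amotl2, Man2a2 and 1810054O13Rik (0.89 to 0.93) and Pla2g2a to 4931400A14Rik, 2010305C02Rik and Spint2 (0.88 to 0.93), none of which is on a list used here.

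The other genes of the pathway did not pass the test between feeds either. Of the other Reg genes, Reg4 had log2 signals of 13.64, 13.15 and 12.27 on feed B, 12.87, 12.91 and 12.00 on feed K and 12.84, 13.20 and 12.22 on feed G, and Reg3d (Ingaprp on the array) was detected on no array. None of the 2 other Reg genes and 20 other Paneth cell genes tested passed the adjusted threshold. The Paneth cell genes had median log2 differences of -0.27 (K minus B) and -0.47 (G minus B), and of -0.05 for the latter without mouse 11. In each of these pairs 17 of 20 were below 0, whereas of all 9652 genes tested 5490 (K minus B) and 5511 (G minus B) were above 0. With each array scaled to its median signal 12 and 14 of 20 were below 0, beside medians over all genes of 0.41 and 0.53. Of 22 genes for interleukin-22, STAT3 and microbial sensing, 12 were tested and 0 passed, while 6 were detected on no array. The interleukin-22 receptor chain Il22ra1 and the kinase Jak1, picked out after their values were seen, had an unadjusted F test p below 0.05 in limma, as did 5.37% of all genes. Their adjusted p over the 3 feeds was 0.848 and 0.894. Il22ra1 was detected on none of the 3 arrays of feed B and Jak1 on 1 of them, so Il22ra1 passed the detection filter through feeds K and G alone. Socs3, a target and inhibitor of STAT3 signalling, was 10.69 in feed G mouse 11 and 11.38 to 13.69 in the other mice. Among inducible epithelial defence genes 0 of 7 tested passed, and likewise 0 of 7 pancreatic acinar, 0 of 4 ileal, 0 of 8 B cell and follicle, 0 of 6 goblet cell, 0 of 4 crypt stem cell, 0 of 7 enterocyte and 0 of 9 smooth muscle markers.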

How the data were processed

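The authors deposited 1 scanner table per array, with a background-corrected signal intensity, a signal-to-noise score and a flag for each of 33012 probes, and a table of the whole series whose values were all identical to the assay-normalized signal intensity of the array tables. The submitters' processing notes name RMA, the methods quantile normalization, and the latter was followed. From the deposited signal intensity, spots with a flag above 5000 (432 to 1045 per array) were left out, arrays were quantile normalized to arithmetic means, log2 was taken, and several probes of a gene entered as their mean. In all 119010 spots with a deposited signal-to-noise score below 1 the signal equalled its standard deviation, so such values are noise.

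Feeds were compared with limma 3.58.1 in R 4.3.3 over 9652 genes detected (score of 3 or more) on at least 3 arrays, with Benjamini-Hochberg adjustment over all of them at 0.05. The fit was tested on simulated data. Exact permutation tests were two-sided, and with 3 against 3 mice cannot go below 0.1. The number of arrays limits the precision. Genes named are the 7 genes, other Reg genes, Paneth cell genes detected on all arrays and the 3 closest genes in course. From each other list up to 5 genes of highest mean signal are named (interleukin-22 and sensing, inducible defence, pancreatic acinar, ileal, B cell, goblet, stem, enterocyte, smooth muscle). Fgf15, Prss2, Pnlip, Ela2, Il22ra1 and Jak1 fall outside this rule and were named after their values were seen. The genes and lists were chosen with earlier results of these data known. Older array symbols were matched to RefSeq by accession. Python 3.11.15 with numpy 2.4.6, pandas 2.3.3 and scipy 1.17.1 was used. Some genes counted in the lists are not reported here by name.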

Additional observations from a re-analysis of the deposited data

Results flagged for a closer look

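Among 69 genes of the lists examined over the 9 mice, 16 had 1 mouse apart from the rest, whose gap to the nearest mouse, as a share of the whole range, was above Dixon's critical value for 9 mice. About 3.45 such genes would be reached if the genes varied independently and with a normal spread. Many of them vary together on the same arrays, and the lists were chosen with earlier results known. The count is therefore no test, and the share over all genes is not given here. In 14 of the 16 genes the mouse was feed G mouse 11.

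Among the Reg lectins this was Reg3g (0.527 of the range). Among the angiogenin genes these were the probes of Ang and Rnase4 (0.532), Ang2 (0.643) and Ang5 (Ang3 on the array, 0.635). All were lowest in feed G mouse 11. The defensin probes were Defcr-rs2 (0.746), Defcr3 (0.662), Defcr4 (0.631), Defcr5 (0.679) and Defcr6 (0.65), and the same mouse was lowest in each. It was lowest too in the lectin Itln (0.613), the lysozyme gene Lzp-s (0.54), the pancreatic colipase gene Clps (0.507) and the smooth muscle kinase gene Mylk (0.6), and highest in the elastase gene Ela1 (0.584).

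Elsewhere, the stem cell marker Prom1 was lowest in feed K mouse 4 (0.573), where its log2 signal was 6.28 against 8.28 to 9.77 in the other mice, and the acute phase gene Saa1 in feed B mouse 7 (0.552), at 9.85 against 10.75 to 11.48.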

How the results depend on the processing

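In none of 432 alternative values of the 21 differences between feeds did one of the 7 genes pass the adjusted threshold, and no pair of genes passed in the correlation. Of these differences 8 kept their sign throughout and 13 changed it at least once. With each array scaled to its median signal, feed K minus feed B turned to 0.38 for Reg1, 0.10 for Reg3a, 0.13 for Reg3g and 0.30 for Mmp7, and feed G minus feed B to 0.17 for Mmp7. With the series table feed K minus feed B was 0.26 for Reg1, -0.0022 for Reg2 and 0.18 for Mmp7, without the spots at noise level (ratio below 1) it was -0.46 for Reg2, and with the share of detected probes as a covariate 0.92 for Reg1.

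Leaving out 1 mouse at a time, the differences that changed sign ranged as follows. For Reg1 from -0.71 to 0.71 (K minus B) and -0.60 to 0.85 (G minus B) and -0.54 to 0.88 (G minus K). For Reg2 from -0.83 to 0.62 (K minus B). For Reg3g from -0.30 to 0.23 (K minus B). For Mmp7 from -0.41 to 0.14 (K minus B) and -0.70 to 0.15 (G minus B) and -0.59 to 0.23 (G minus K). For Pla2g2a from -1.60 to 1.92 (K minus B) and -0.24 to 2.33 (G minus B) and -0.56 to 2.71 (G minus K). For Ang4 from -2.19 to 0.085 (G minus K).

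Over all genes, the count called over the 3 feeds was 0 and became 3 without the spots at noise level, 1 with genes detected on all 9 arrays and 1 with the unmoderated test. For feed G minus feed B the counts under these were 4, 1 and 1, and for feed G minus feed K 3 without these spots and 1 with the unmoderated test. Without 1 mouse at a time they ranged from 0 to 3 over the 3 feeds, 0 to 10 (K minus B) and 0 to 3 (G minus B), the highest each without feed B mouse 10. The median standard deviation of the 7 genes was 0.622 without the spots at noise level. Without 1 mouse at a time, the exact test gave an unadjusted p below 0.05 for 0 to 1 of the 7 genes. The 1 was Ang4 without feed G mouse 8, the feed G mouse that overlapped feed B, and leaving it out separated the 3 feeds by itself. The causes were not tested.

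No paired analysis was run, since each array held a separate mouse and the labels give no link between mice of different feeds. A batch as a block was not run, since all arrays carried 1 folder name and each its own barcode. What limits these results is 3 mice per feed, and for Reg2 a signal near background.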

Other observations

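Among the inducible defence genes of the epithelium, Lcn2, a siderophore-binding protein released in inflammation, split the mice in another way than the 7 genes. Its log2 signals were 11.57, 5.30 and 12.07 in mice 7, 8 and 10 of feed B, 9.04, 12.85 and 9.01 in mice 1, 3 and 4 of feed K and 11.21, 12.19 and 12.71 in mice 4, 8 and 11 of feed G. Feed B mouse 8, where it was not detected, and feed K mice 1 and 4 were low. Feed G mouse 11, lowest in Reg3g, Mmp7 and Ang4, had the second highest Lcn2 signal.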
